A study of Mus musculus with 8 samples.

Results

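Bone morphogenetic protein (BMP) signalling was followed in heart fibroblasts through 9 genes. They were 4 secreted antagonists or modulators (Grem1, Nog, Bmper and Chrdl1), 3 ligands (Bmp2, Bmp4 and Bmp6) and 2 target genes that read out the pathway (Id1 and Id3), out of 24306 genes with a named spot on the array. The members were chosen by their place in the pathway with the measured values of these same 8 samples already known, and the spots were found by platform gene symbol. Their differences between groups are therefore a description, with no test. The 9 genes were read by 12 spots, 3 for Chrdl1, 2 for Bmp4 and 1 for each of the others, and the brightest spot stood for the gene.

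The study set wild-type fibroblasts, freshly isolated from mouse hearts, beside fibroblasts labelled as Siah knockout, each either untreated (normoxia) or kept at 1% O2 for 6 h (hypoxia). All cells were grown in DMEM with 10% serum, and each of the 4 groups held 2 samples that the design calls biological replicates. The Siah family are ubiquitin ligases, whose known substrates include oxygen-sensing prolyl hydroxylases. The label does not say which Siah gene was altered, nor the strain, age or sex of the animals, nor how many animals gave each culture, so p-values measure only the spread between these samples. Total RNA was amplified, labelled with Cy3 and hybridised to a single-colour Agilent array. Values are log2 intensities, on which a step of 1 is a doubling of signal, and levels are compared only within a spot, since spots differ in how brightly they bind.

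BMP ligands are secreted dimers that bring together type I and type II receptor kinases, which then activate the transcription regulators Smad1, Smad5 and Smad9. Antagonists such as gremlin 1 (Grem1) and noggin (Nog) bind the ligands outside the cell and keep them from their receptors. Id1 and Id3 encode helix-loop-helix proteins that hold back differentiation factors, and they are among the genes that activated Smads switch on most directly. In the heart, BMP signalling is known for its part in development, and its antagonists are studied in fibrosis.

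The cell type label was checked first. The fibroblast markers Col1a1, Pdgfra and Tcf21 had mean levels of 15.45, 10.70 and 11.04, and all 10 listed lay above the level of 3.39 under which the dimmest 30% of genes were set aside. Their mean level was 13.07 to 13.20 in wild-type and 12.83 to 13.10 in knockout-labelled samples. Macrophage markers were bright as well: 14 of 14 lay above that level, with means of 12.42 to 12.95 in wild-type and 11.04 to 12.02 in knockout-labelled samples, and all 14 were lower in the knockout-labelled group. In bulk RNA, fewer cells of a type and less RNA per cell cannot be told apart. Eif2s3y, a gene of the Y chromosome, lay between 8.80 and 9.10 in wild-type and between 3.39 and 4.01 in knockout-labelled samples, so genotype and this sex-linked difference cannot be told apart. Siah2 measured 8.71 to 9.55 in wild-type samples. In knockout-labelled samples it measured 6.60 and 7.39 in normoxia but 9.29 and 8.87 in hypoxia, from 1 spot whose place relative to the altered sequence is not known, so it does not check the labels. Low oxygen was evident in Egln3, an oxygen-sensing prolyl hydroxylase, which lay between 4.50 and 6.56 in normoxia and between 8.36 and 9.68 in hypoxia.

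Grem1 differed between the genotypes more than any other member. Its spot gave 7.63 and 7.25 for the wild type in normoxia and 7.18 and 7.10 in hypoxia. It gave 4.15 and 3.38 in knockout-labelled normoxia and 2.66 and 4.24 in knockout-labelled hypoxia. Every wild-type value lay above every knockout-labelled value, the closest pair being 7.10 and 4.24, while the oxygen groups overlapped.

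Grem1 averaged 7.29 ± 0.23 (SD, n = 4) in the wild type against 3.61 ± 0.74 (SD, n = 4) under the knockout label. The log2 difference was -3.68 (SE 0.38), or 12.8-fold lower. The 4 samples of a genotype are 2 replicate numbers, each in normoxia and hypoxia, so they may not be independent. No label says whether same-numbered samples of a genotype share a culture. Taken as 1 culture (a random block), they gave this difference an SE of 0.56. The difference was -3.67 (SE 0.53) in normoxia and -3.69 (SE 0.53) in hypoxia. With oxygen it differed by -0.30 (SE 0.53) in wild-type cells, where both hypoxia values lay under both normoxia values. In knockout-labelled cells the values overlapped. In the knockout-labelled samples Grem1 was at the dim end of the array, with 2 of the 4 values under the level of 3.39, so how far the signal lay below that end was not measured.

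**Figure D1:**
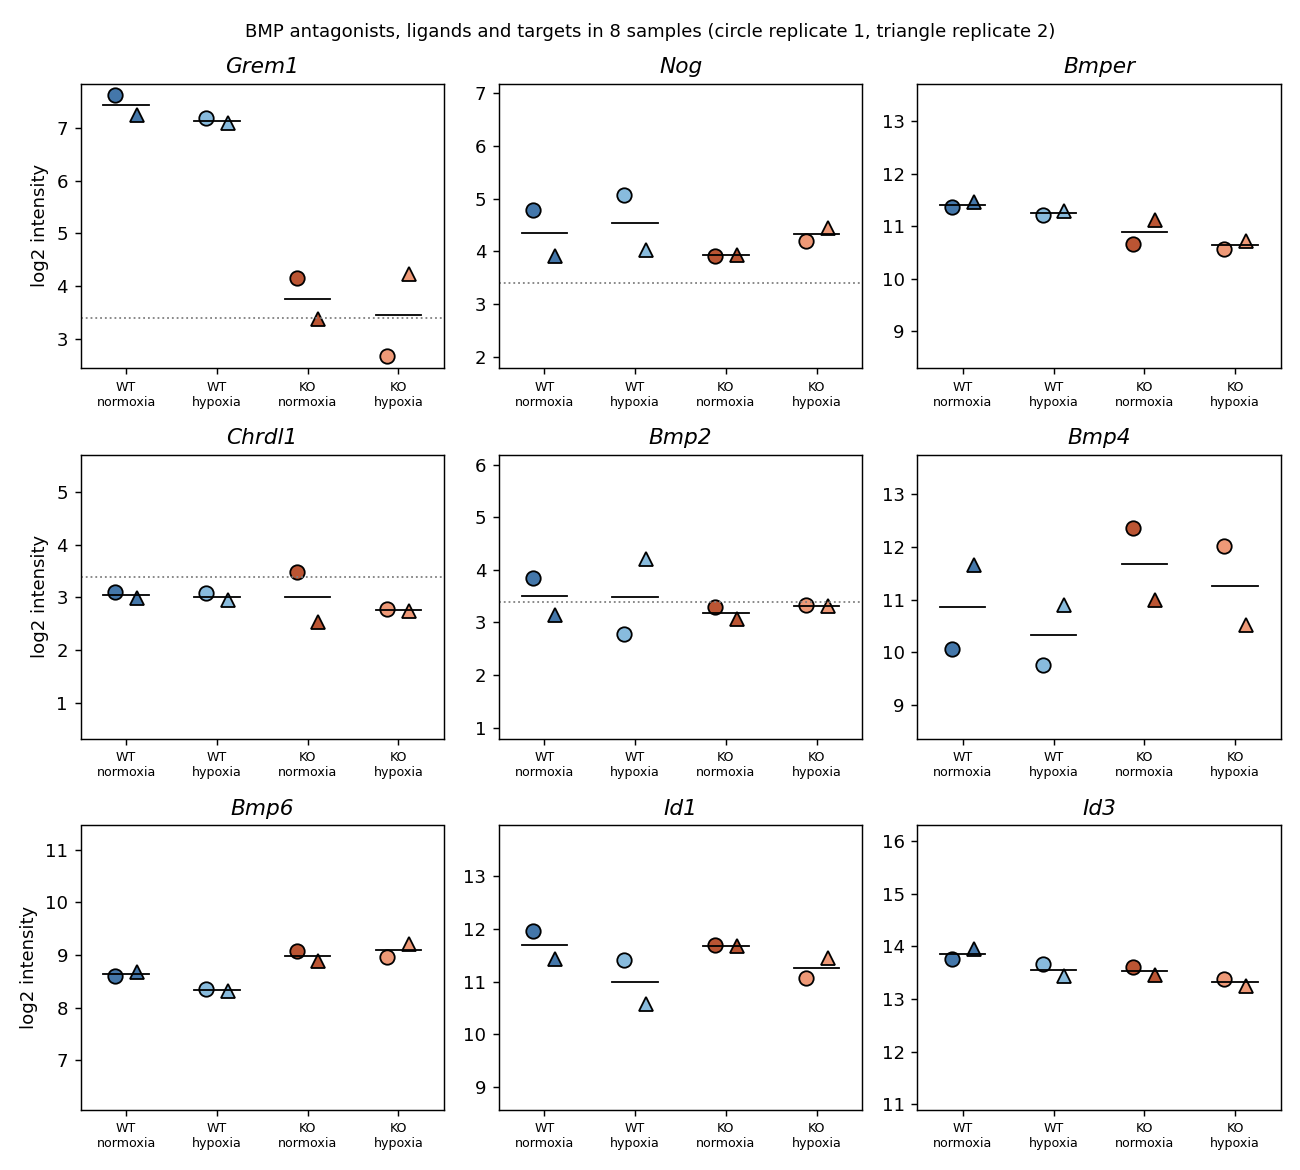
Log2 intensity (vertical axis) of the 9 members in the 4 groups (horizontal axis; WT, wild type; KO, labelled as Siah knockout), with a circle for replicate 1, a triangle for replicate 2 and a line for the group mean; every panel spans the same range of log2 units, and the dotted line marks the filter level of 3.39. Grem1 lay between 7.10 and 7.63 in wild-type and between 2.66 and 4.24 in knockout-labelled samples, whereas Bmp4 was spread more between replicates than between groups.

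RefSeq promoter entries (build GRCm38.p6) were at hand for 5 of the 9 members, namely Grem1, Bmper, Bmp4, Bmp6 and Id3. The 250 bases before the gene start are shown for 3 of them: Grem1 and Bmp6, which did not overlap between the genotypes in opposite directions, and Id3, a direct target of the pathway. Capitals mark every match, on either strand, to GGCGCC (a GC-rich element known from Smad-bound promoters), GTCTG (a Smad-binding box, CAGAC on the other strand), or ACGTG and GCGTG (cores of the hypoxia-response element). The windows are chr2:113758649-113758898 (minus strand) for Grem1, chr13:38345466-38345715 (plus strand) for Bmp6 and chr4:136143572-136143821 (plus strand) for Id3, each printed 5′ to 3′.
Grem1: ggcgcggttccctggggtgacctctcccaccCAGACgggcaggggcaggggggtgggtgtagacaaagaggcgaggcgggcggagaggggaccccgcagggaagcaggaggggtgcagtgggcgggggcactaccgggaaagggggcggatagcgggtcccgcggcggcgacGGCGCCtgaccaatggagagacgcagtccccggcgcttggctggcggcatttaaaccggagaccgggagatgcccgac
Bmp6: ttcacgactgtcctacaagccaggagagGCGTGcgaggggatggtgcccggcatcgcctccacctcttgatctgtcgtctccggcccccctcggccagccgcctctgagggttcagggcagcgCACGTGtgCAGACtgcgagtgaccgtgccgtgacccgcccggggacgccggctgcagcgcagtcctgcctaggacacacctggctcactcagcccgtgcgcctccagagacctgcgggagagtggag
Id3: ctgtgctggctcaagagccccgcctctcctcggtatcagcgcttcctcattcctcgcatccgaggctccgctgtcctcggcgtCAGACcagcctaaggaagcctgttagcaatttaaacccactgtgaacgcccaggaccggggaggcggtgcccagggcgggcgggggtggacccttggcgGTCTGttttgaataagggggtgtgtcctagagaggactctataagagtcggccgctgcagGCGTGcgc

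In the Grem1 window GGCGCC began 78 bases before the start and CAGAC 219 bases before it, and neither hypoxia core was present. In the Bmp6 window CACGTG, which reads the same on both strands and so matches ACGTG on each, began 127 bases before the start. Its CAGAC match began 119 bases and its GCGTG match 222 bases before the start. Id3 held CAGAC 167 bases, GTCTG 68 bases and GCGTG 8 bases before its start. The Bmp4 window held CACGTG alone, 188 bases before the start, and the Bmper window none of these letters. Of 32851 promoter windows of this length, 9.59% held GGCGCC, 42.2% GTCTG, 16.6% ACGTG and 28.2% GCGTG. These matches describe letters and not binding.

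The other antagonists differed less than Grem1 or could not be read. Bmper, a secreted BMP-binding protein that can hold back or promote signalling, read 11.36 and 11.45 for the wild type in normoxia, then 11.22 and 11.29 in hypoxia. Under the knockout label it read 10.66 and 11.11 in normoxia, then 10.56 and 10.72 in hypoxia. All 4 wild-type values lay above all 4 knockout-labelled values, though the closest pair, 11.22 and 11.11, was near.

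The Bmper means were 11.33 ± 0.10 (SD, n = 4) and 10.76 ± 0.24 (SD, n = 4), a log2 difference of -0.57 (SE 0.15), 1.48-fold lower in knockout-labelled cells. With the culture as a random block that SE was 0.18. Between oxygen conditions Bmper differed by -0.20 (SE 0.15).

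Noggin measured 4.79 and 3.91 in the wild type at normoxia, then 5.06 and 4.02 at hypoxia. It had 3.92 and 3.94 in knockout-labelled normoxia and 4.20 and 4.44 in knockout-labelled hypoxia. Replicate 1 was the higher in both wild-type groups. Over all samples the genotypes overlapped, as did the oxygen conditions. Within knockout-labelled cells both hypoxia values lay above both normoxia values, and in wild-type cells the values overlapped. The average differences were -0.32 (SE 0.30) by genotype and 0.30 (SE 0.30) by oxygen. Between same-numbered samples of a genotype, the hypoxia value was the higher each time. With the culture as a fixed block, the SE by oxygen was 0.10.

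Chrdl1, a chordin-like antagonist, was dim at each of its 3 spots, whose means were 2.96, 2.80 and 2.80. Single values at these spots ran from 2.28 to 3.90. It stayed under the filter level and was not tested, and no direction is given for it.

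**Figure D2:**
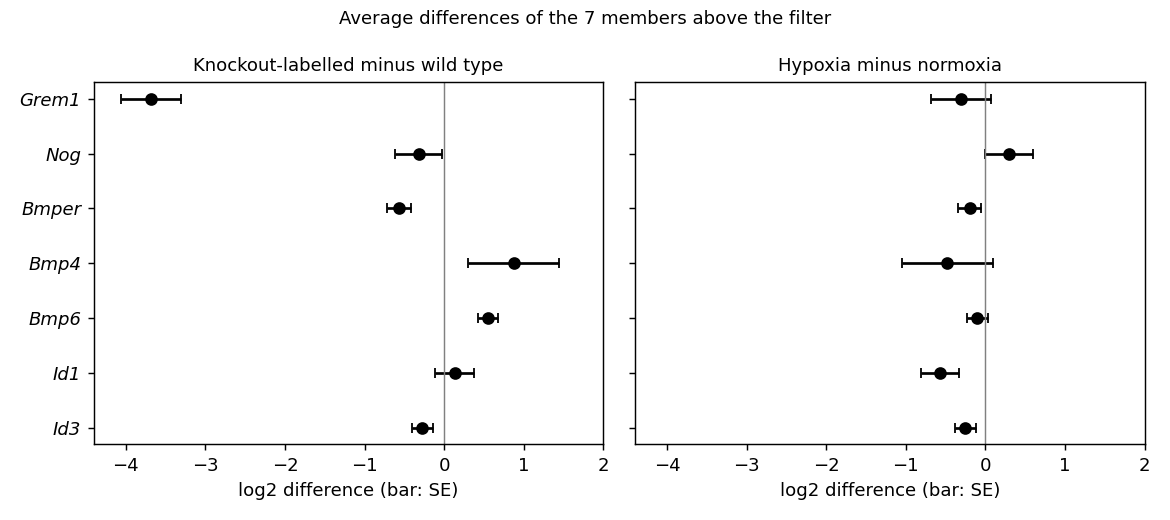
Log2 difference (horizontal axis, point) with its SE (bar) for the 7 members above the filter, averaged over oxygen conditions on the left (knockout-labelled minus wild type) and over genotypes on the right (hypoxia minus normoxia). Grem1 stands at -3.68 by genotype, and the oxygen differences run from -0.57 for Id1 to 0.30 for Nog.

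Among the ligands Bmp6 was steady within groups and higher in knockout-labelled cells. Wild-type samples gave 8.60 and 8.67 in normoxia and 8.34 and 8.31 in hypoxia. Knockout-labelled samples gave 9.07 and 8.89 in normoxia and 8.96 and 9.21 in hypoxia. Every knockout-labelled value was above every wild-type value, and the replicates of a group lay close together.

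Bmp6 averaged 8.48 ± 0.18 (SD, n = 4) in the wild type against 9.03 ± 0.14 (SD, n = 4) under the knockout label. The log2 difference was 0.55 (SE 0.13, or 0.17 with the culture as a random block), or 1.47-fold. That difference was 0.34 (SE 0.18) in normoxia and 0.76 (SE 0.18) in hypoxia. With low oxygen Bmp6 differed by -0.31 (SE 0.18) in wild-type cells, where both hypoxia values lay under both normoxia values, and by 0.11 (SE 0.18) in knockout-labelled cells, where the values overlapped. In order of level, knockout-labelled hypoxia (9.08 ± 0.17) and normoxia (8.98 ± 0.13) did not differ beyond their spread (SD, n = 2 each), and wild-type normoxia (8.63 ± 0.05) and hypoxia (8.32 ± 0.03) followed apart from each other.

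Bmp4 varied more between the replicates of a group than between groups. It gave 10.07 and 11.66 for the wild type in normoxia and 9.75 and 10.89 in hypoxia. It gave 12.35 and 10.99 in knockout-labelled normoxia, and 12.01 and 10.51 in knockout-labelled hypoxia. Replicate 2 was the higher in both wild-type groups and replicate 1 in both knockout-labelled groups.

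The second Bmp4 spot put the 8 samples in the same order. It gave 7.73 and 9.40, then 7.60 and 8.63, in wild-type normoxia and hypoxia, and 10.25 and 8.65, then 9.80 and 7.99, in knockout-labelled normoxia and hypoxia. Both spots thus carried the same differences between samples, and the spread of Bmp4 was not that of a single noisy spot.

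The average log2 difference of Bmp4 at the brighter spot was 0.87 (SE 0.57) by genotype and -0.48 (SE 0.57) by oxygen. The typical SD within a group was 1.00 there, against 0.11 for Bmp6 and 0.12 for Id3. At the dimmer spot the differences were 0.83 and -0.51. Between same-numbered samples of a genotype, the hypoxia value was the lower each time at both spots. With the culture as a fixed block, the SE by oxygen was 0.12 at the brighter spot.

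Other genes of the pathway split the replicates in the same way or the opposite way; these were chosen after their values were seen. The BMP co-receptor Rgma gave 8.10 and 8.23 in replicate 1 and 9.26 and 9.60 in replicate 2 of the wild type, in normoxia and hypoxia in turn. In knockout-labelled cells Rgma gave 9.40 and 9.55 in replicate 1 and 8.36 and 8.82 in replicate 2, the arrangement seen for Bmp4.

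Follistatin (Fst), which binds activins and some BMPs, ran the other way. It gave 11.53 and 11.41 in replicate 1 and 10.43 and 10.05 in replicate 2 of the wild type, and 10.03 and 10.11 in replicate 1 and 10.99 and 10.91 in replicate 2 of knockout-labelled cells. Smurf2, a ubiquitin ligase that targets Smads and their receptors, also ran against Bmp4, from 8.49 in wild-type hypoxia replicate 2 to 10.47 in knockout-labelled normoxia replicate 2. The mean of the macrophage markers in hypoxia was 12.42 and 12.95 in wild-type replicates 1 and 2 and 12.02 and 11.10 in knockout-labelled replicates 1 and 2. Within each genotype this mean was higher in the same replicate as Bmp4 and Rgma, as it also was in normoxia. Not every marker did so. Csf1r and Itgam were higher in replicate 2 of knockout-labelled cells, and Itgam in normoxia and Csf1r in hypoxia were higher in wild-type replicate 1. Lyz2, near the array's highest value, was level in the wild type. The part of the macrophage markers in the spread of Bmp4 was not tested.

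**Figure D3:**
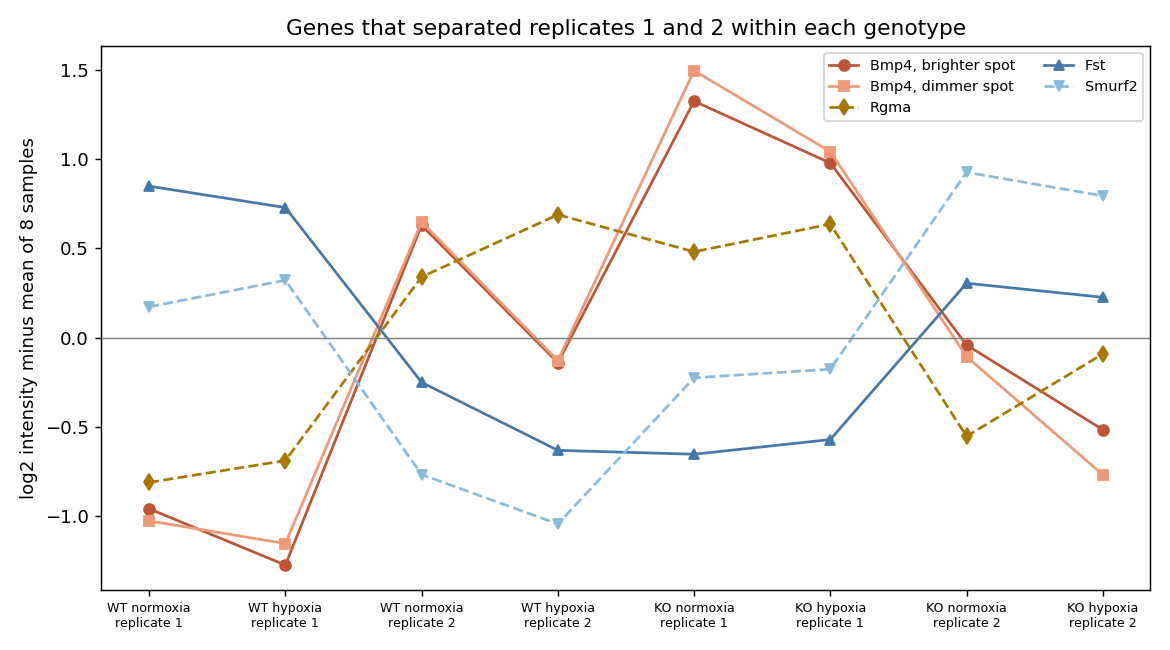
Log2 intensity minus the gene's mean over 8 samples (vertical axis) for both Bmp4 spots, Rgma, Fst and Smurf2 in each sample (horizontal axis, ordered by genotype and replicate; lines join the points of 1 spot). Within a genotype and oxygen condition, Bmp4 and Rgma were higher in wild-type replicate 2 and knockout-labelled replicate 1 than in the other replicate, and Fst and Smurf2 were lower there.

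Bmp2 lay at the dim end. It measured 3.85 and 3.15 for the wild type at normoxia, 2.77 and 4.21 at hypoxia, 3.29 and 3.07 in knockout-labelled normoxia and 3.32 and 3.31 in knockout-labelled hypoxia. Its mean of 3.37 fell just under the filter level of 3.39, and the nearest member above that level was Nog with a mean of 4.29. No difference of Bmp2 is given.

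The target genes Id1 and Id3 were both lower on average with low oxygen, without parting all samples by oxygen. Id1 gave 11.96 and 11.43 for the wild type in normoxia and 11.40 and 10.57 in hypoxia, and 11.69 in both knockout-labelled normoxia samples and 11.06 and 11.46 in knockout-labelled hypoxia. Each group's hypoxia values lay under its normoxia values within a genotype, but over both genotypes the highest hypoxia value, 11.46, passed the lowest normoxia value, 11.43.

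The log2 difference of Id1 with oxygen was -0.57 (SE 0.24) on average, -0.71 (SE 0.34) in wild-type and -0.43 (SE 0.34) in knockout-labelled cells. Between the genotypes it was 0.13 (SE 0.24). The order of the group means was wild-type normoxia (11.70), knockout-labelled normoxia (11.69), knockout-labelled hypoxia (11.26) and wild-type hypoxia (10.99), and of the steps between neighbours that between the knockout-labelled groups alone exceeded the SDs beside it.

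Id3 gave 13.76 and 13.94 in wild-type normoxia, 13.67 and 13.44 in wild-type hypoxia, 13.61 and 13.47 in knockout-labelled normoxia, and 13.39 and 13.25 in knockout-labelled hypoxia. The values of hypoxia lay under those of normoxia within each genotype, and the groups overlapped across genotypes. Its difference was -0.26 (SE 0.13) with oxygen and -0.28 (SE 0.13) with genotype, so the targets did not share a direction between genotypes, where Id1 was at 0.13.

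Whether the response to oxygen differed between the genotypes could be read for 6 members; for Grem1 it could not, since the knockout-labelled values lay at the dim end. The difference of the responses, knockout-labelled minus wild type, was 0.20 (SE 0.60) for Nog, -0.09 (SE 0.30) for Bmper, 0.13 (SE 1.15) for Bmp4, 0.28 (SE 0.48) for Id1 and 0.08 (SE 0.26) for Id3. For Bmp6 it was 0.42 (SE 0.26).

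Across all 17014 genes tested with limma, 8 were called in the genotype average at a Benjamini-Hochberg adjusted p under 0.05, or 0.047%, and none of the 7 members above the filter was among them. With oxygen, and for the difference of the responses, 0% of genes and 0 of 7 members were called. At an unadjusted p under 0.05 there were 1693 genes in the genotype average, 639 with oxygen and 416 for the difference of the responses; among the members these counts were 3, 0 and 0. The count of 8 fell to 1 without wild-type normoxia replicate 1 or 2, wild-type hypoxia replicate 2, knockout-labelled normoxia replicate 1 or 2, or knockout-labelled hypoxia replicate 1, was 3 without wild-type hypoxia replicate 1 and 12 without knockout-labelled hypoxia replicate 2. Of all genes tested, 3.96% had all 4 knockout-labelled values above all 4 wild-type values and 4.85% had them all below; among the 7 members this held for Bmp6 in the first direction and Grem1 and Bmper in the second. By oxygen 1.35% of genes had all 4 hypoxia values above all 4 normoxia values and 0.817% had them all below, and no member did either. Since the members were picked with these values known, nothing is read from these counts.

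The rest of the pathway was described with a wider list of 54 genes, of which 53 had a spot and 42 lay above the filter. In the genotype average 25 of the 42 were higher and 17 lower in knockout-labelled cells, with a median log2 difference of 0.03, the same as the 0.03 over all genes. With oxygen 12 were higher and 30 lower, with a median of -0.07 beside -0.01 over all genes. For the difference of the responses 21 were higher and 21 lower. The limma fit called 0 of the 42 in each of the 3 comparisons. At an unadjusted p under 0.05 there were 5 by genotype, 5 by oxygen and 0 for the difference of the responses. Over all 17014 genes these counts were 1693, 639 and 416 in turn.

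Of the other ligands 5 of 11 lay above the filter: Bmp5, Bmp8a, Bmp8b, Gdf5 and Gdf6. Bmp3, Bmp7, Bmp10, Bmp15, Gdf2 and Gdf7 were dim. Gdf6, a ligand known from joint and skeletal development, was the bright one of them, between 10.81 and 11.24 in wild-type and between 11.16 and 11.91 in knockout-labelled samples. The ranges of the genotypes met, and its log2 difference was 0.47 (SE 0.16, adjusted p = 0.404 in limma).

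Among the other antagonists 12 lay above the filter, and 9 of these 12 were lower in knockout-labelled cells on average, with a median of only -0.05. Bambi was the clear exception in size. It encodes a receptor-like protein without a kinase that blocks BMP and TGF-beta receptors, and BMP signalling is known to raise it. Bambi lay between 8.07 and 8.37 in wild-type and between 8.86 and 9.20 in knockout-labelled samples, without overlap.

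The log2 difference of Bambi by genotype was 0.77 (SE 0.14), which did not pass over all genes (adjusted p = 0.142 in limma). Fstl1, Nbl1, Fstl3 and Crim1 were bright in all samples and differed by -0.07, -0.03, -0.03 and 0.18 between the genotypes. Fstl1 lay at 15.33 to 15.59, close to the array's highest value, where a difference may not show.

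Most receptors differed little between the groups. Of 11 listed, 10 lay above the filter, with a median difference of 0.03 by genotype and -0.04 by oxygen. The type I receptors Bmpr1a, Acvr1 and Acvrl1 differed by 0.05, -0.01 and 0.00 between the genotypes, and the type II receptor Bmpr2 by -0.15. The co-receptor endoglin (Eng) differed by 0.02. Bmpr1b differed by 0.24 (SE 0.51), with a wide spread between replicates. Acvr2b, a type II receptor shared with activin, was the member of this group furthest from 0, at -0.90 (SE 0.40, adjusted p = 0.542 in limma). Its lowest value, 4.06, was in knockout-labelled hypoxia replicate 1, and the genotype ranges overlapped. Without that sample the difference was -0.45. The second Acvr2b spot, with a mean of 2.83 under the filter level, gave 0.05.

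Smad1 and Smad4 were level, at -0.11 and 0.02 by genotype. Smad9 was higher in knockout-labelled cells without overlap, between 4.57 and 4.90 against 3.68 to 4.40, with a log2 difference of 0.55 (SE 0.19, adjusted p = 0.408 in limma). Smad7, an inhibitory Smad that both BMP and TGF-beta signalling induce, was 1 of 2 genes of the list, with Hey1, at an unadjusted p under 0.05 both by oxygen and by genotype. It measured 10.05 and 9.82 in wild-type normoxia, 10.72 and 10.57 in wild-type hypoxia, 10.52 and 10.76 in knockout-labelled normoxia and 10.81 and 10.95 in knockout-labelled hypoxia.

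Wild-type normoxia was thus the low group for Smad7 and the other 3 lay together. The log2 difference was 0.48 (SE 0.14, adjusted p = 1.00 in limma) with oxygen and 0.47 (SE 0.14, adjusted p = 0.302 in limma) by genotype, and that of the responses was -0.47 (SE 0.27, adjusted p = 1.00 in limma). The dimmer Smad7 spot gave 0.43 with oxygen and 0.33 by genotype. Smad6, the inhibitory Smad more specific to BMP signalling, differed by -0.29 with oxygen and 0.32 by genotype.

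**Figure D4:**
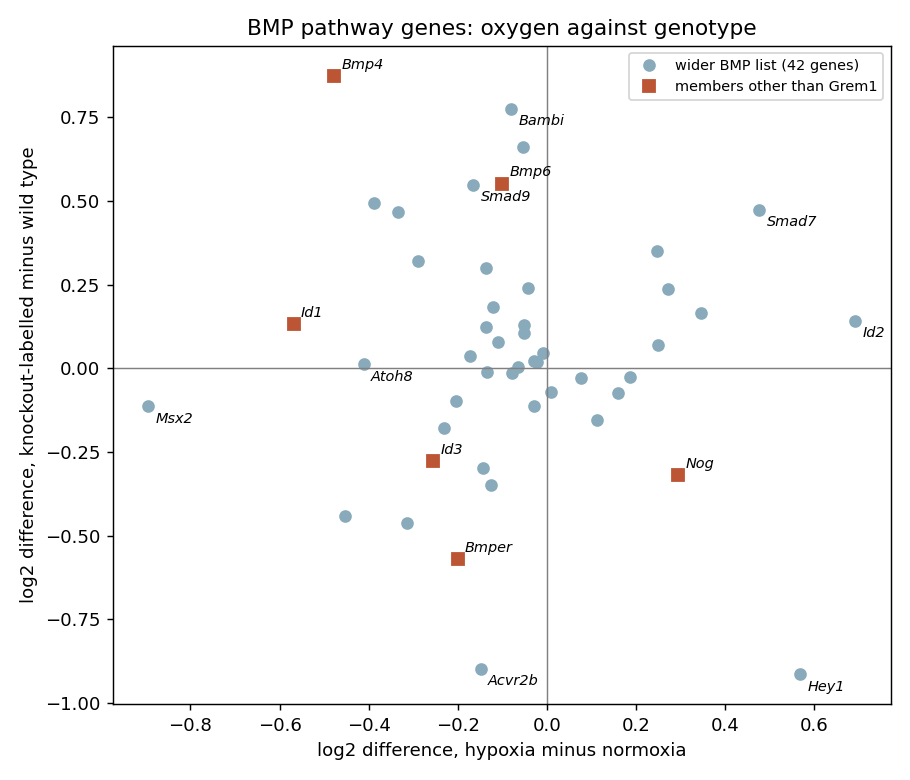
Each point is a gene, with its log2 difference by oxygen (horizontal axis, hypoxia minus normoxia) and by genotype (vertical axis, knockout-labelled minus wild type), squares for 6 members and circles for the 42 genes of the wider list; Grem1, at -3.68 by genotype, lies outside the plotted range and is left out. Id2 (0.69) and Smad7 (0.48) lie to the right, Id1 (-0.57) and Msx2 (-0.89) to the left, and among the wider list Bambi (0.77) lies highest and Hey1 (-0.91) lowest.

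Target genes of the pathway did not share a direction with low oxygen. Id2, another member of the Id family, gave 10.02 and 9.91 for the wild type in normoxia and 11.00 and 10.60 in hypoxia. It gave 10.07 and 10.43 in knockout-labelled normoxia and 10.73 and 10.87 in knockout-labelled hypoxia. All 4 hypoxia values lay above all 4 normoxia values, the opposite direction to Id1 and Id3.

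The log2 difference of Id2 was 0.69 (SE 0.16, adjusted p = 0.892 in limma), and its dimmer spot gave 0.52. Atoh8, a helix-loop-helix target of BMP receptors in endothelium and liver, had -0.41 (SE 0.16, adjusted p = 1.00 in limma). Msx2, a homeobox target, had -0.89 (SE 0.35, adjusted p = 1.00 in limma), with a range of 4.48 to 5.53 in normoxia and 3.44 to 4.56 in hypoxia. Its second spot, under the filter level, gave 0.15.

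Hey1, a repressor downstream of Notch and of BMP receptors, was lower in knockout-labelled cells. It lay between 6.15 and 6.96 in wild-type and between 5.06 and 5.85 in knockout-labelled samples without overlap, a log2 difference of -0.91 (SE 0.17, adjusted p = 0.153 in limma). With oxygen it had 0.57 (SE 0.17). Beside these genotype differences stand the macrophage markers, lower in 14 of 14 with a median of -1.24. The smooth muscle and pericyte markers were lower in 8 of 10, with means of 8.72 to 8.85 in wild-type and 7.70 to 8.33 in knockout-labelled samples. Of these, Des (-2.12) and Myh11 (-1.42) were lower without overlap, and Kcnj8 and Abcc9 were dim. Tagln (-0.01) and Acta2 (0.01) lay at the array's highest values, where a difference may not show. Of the endothelial markers 7 of 10 were lower and Erg was dim, with means of 5.07 to 5.28 in wild-type and 5.05 to 5.27 in knockout-labelled samples; Cdh5 and Emcn were higher, by 0.83 and 1.26. Epicardial and mesothelial markers were split, with a median of 0.56 and 3 of 8 lower. Upk3b (1.28), Msln (1.42) and Upk1b (0.90) were higher without overlap. Krt18 (-1.06) was lower without overlap, and Krt8 (-0.86) and Wt1 (-0.59) were lower with overlap. Cardiomyocyte markers were split too, with a median of 0.15 and 4 of 10 lower, and Tnnt2 (1.85) was higher without overlap. Among fibroblast markers Lum (-1.25) and Dcn (-0.79) were lower and Thy1 (1.05) higher. The part of these marker differences and of the sex-linked difference in the values of Grem1, Bmper, Bmp6, Bambi and Hey1 was not tested.

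For the difference of the hypoxia responses the genes with the smallest p in the positive direction were Bmp5 (0.61, SE 0.34) and Rgmb (0.41, SE 0.35), and in the negative direction Runx2 (-0.70, SE 0.37) and Smad7. Each had an adjusted p = 1.00 in limma. Bmp5 was dim, with a mean of 3.59.

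The pattern of Grem1 over the 8 samples was that of a genotype difference, and the genes most like it had the same shape. By Pearson correlation over 8 samples, which share the split by genotype, they were Tmem268 (r = 0.991), Tmed1 (0.985), Cpxm1 (0.983), Hp (0.982) and 2510009E07Rik (0.981). Their sizes differed: Hp, which encodes haptoglobin, differed by -2.46 (SE 0.17) and Cpxm1, a carboxypeptidase-like protein, by -1.73 (SE 0.22), whereas Tmed1 differed by -0.33 (SE 0.12).

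Among the members themselves Bmper (r = 0.853) was the most like Grem1 and Bmp6 (-0.798) the most opposed. Id1 was unlike it (-0.03). The genes most like Id1 over the same 8 samples were Drg2 (0.972), Ptges3 (0.964), Camkk2 (0.960), Plekha3 (0.956) and Srgap1 (0.950), with oxygen differences of -0.15 to -0.35.

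**Figure D5:**
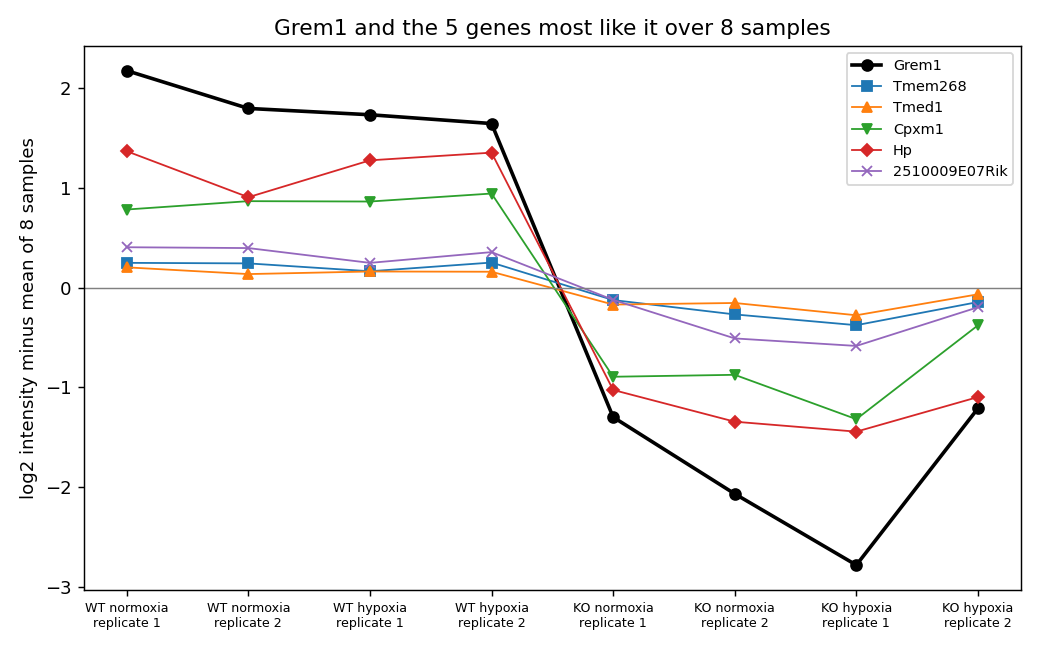
Log2 intensity minus the gene's mean over 8 samples (vertical axis) in each sample (horizontal axis) for Grem1 and the 5 genes with the highest Pearson correlation with it; lines join the points of 1 gene. All 6 genes lie above 0 in the 4 wild-type and below 0 in the 4 knockout-labelled samples, and Grem1 and Hp span the widest range.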

How the data were processed

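The authors deposited a table of 62976 spots in 8 samples, whose values were taken as log2 intensities because they ran from 2.13 to 16.0; no label or file header states the log base, the background correction or the normalization. All columns had a median of 3.94, and limma is named in the submitters' processing notes. The depth behind a value is unknown, and the number of arrays limits the precision. Of the spots, 43941 had 1 gene, with symbols updated through RefSeq accessions (GRCm38.p6) for 33704. The brightest spot stood for each gene, and the dimmest 30% of 24306 genes were removed, which left 17014. Means of the 4 groups were fitted to all genes with limma 3.58.1 (R 4.3.3; lmFit and eBayes, 4 residual and 2.25 prior degrees of freedom), with Benjamini-Hochberg adjustment over all 17014 and a threshold of 0.05. SE is the moderated standard error. The fit was tested on simulated data.

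The members and lists were chosen with earlier results of these data known. The text gives the 9 members in every sample and levels of the wider list. From that list it names the 2 higher and 2 lower genes with the smallest p in each comparison. It also gives the 5 genes most like Grem1 and Id1, and Siah1a, Siah1b, Siah2 and Egln3 as checks. Eif2s3y, the examples Rgma, Fst and Smurf2, the test values of Smad9, Gdf6 and Vwc2 and the neighbours of Grem1 were picked after their values were seen. Marker lists covered fibroblasts, macrophages, endothelium, cardiomyocytes, smooth muscle and pericytes, and epicardium. Cardiomyocyte markers had means of 5.21 to 5.37 in wild-type and 5.29 to 5.68 in knockout-labelled samples, with Myh6, Myh7, Tnni3 and Pln dim, and epicardial markers 7.33 to 8.07 and 7.83 to 8.19. The alternatives were quantile normalization, other filters, the mean over spots, a variance trend and the removal of each sample. Others were blocks by culture and by replicate number, as labelled or swapped in knockout-labelled samples (crossed).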

Additional observations from a re-analysis of the deposited data

Results flagged for a closer look

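Vwc2, a BMP-binding secreted protein of the wider list, differed in opposite directions with low oxygen in the genotypes: both wild-type hypoxia values lay above both normoxia values (log2 difference 0.38), and both knockout-labelled hypoxia values lay below both normoxia values (-1.16). The difference of the responses was -1.54 (SE 0.91, adjusted p = 1.00 in limma). It rested on 1 value, 5.36 in knockout-labelled normoxia replicate 2, since the other 7 lay between 2.90 and 3.52.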

How the results depend on the processing

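In the genotype average the number of genes called over all genes, 8 in the fit described, was 45 with the dimmest 50% of genes removed, 62 with a variance trend, 1 with the replicate number as a block (replicate block), 1 with a random block for the culture and 453 with the crossed replicate block, and ran from 1 to 12 without single samples. With oxygen it was 15 with a variance trend and 15 with the culture as a random block, against 0, and ran from 0 to 4 without single samples; for the difference of the responses it ran from 0 to 7. A group left with 1 sample was assumed to vary like the others. For calls of members, only the alternatives that kept all 8 samples are listed. In the genotype average Grem1 was called, making 1, with the dimmest 50% removed, with the mean over spots and with a variance trend. Grem1 and Bmp4, making 2, were called with the crossed replicate block. With the dimmest 50% removed Nog, with a mean of 4.29, fell out, and Grem1 stayed in through its wild-type values (mean 7.29 against 3.61). Since the members were picked with these values known, these calls are no test and nothing is read from them. Of the wider list 1 gene, Bambi, was called, with the crossed replicate block alone, so nothing is read from that call either. The genotype difference of Grem1 ran from -4.07 to -3.29, that of Bmper from -0.68 to -0.46 and that of Bmp6 from 0.49 to 0.61 over 16 alternatives each. The oxygen difference of Id1 ran from -0.78 to -0.36 and that of Id3 from -0.31 to -0.20 over 17. Of 347 member values under alternatives, 337 moved by less than the SD within groups, and most could not do otherwise. Filters, a variance trend and blocks leave an estimate as it is in this balanced design. Removing 1 of 2 replicates moves an average difference by less than that SD in any case, so nothing is read from this count. The other 10 were differences of the responses without 1 sample, such as Grem1 at 0.77 and -0.80 without knockout-labelled hypoxia replicate 1 and 2 in turn. Deviations from group means of same-numbered samples correlated over genes at 0.31 and 0.34 within the genotypes and at -0.38 to -0.26 between them. With 2 samples in a group, swapping the numbers of 1 genotype turns the sign. The correlations between the genotypes thus favour the swapped order, which no label gives. The crossed replicate block uses that order, so nothing is read from its 453 genes or its other calls. With the culture as a fixed replicate block the SE of the oxygen difference fell to 0.12 for Bmp4 (-0.48), 0.10 for Nog (0.30) and 0.13 for Id1 (-0.57). Without knockout-labelled hypoxia replicate 1 the oxygen difference of Grem1 was 0.09, and the genotype difference of Id1 fell to -0.08 without wild-type hypoxia replicate 2. Over 16 or 17 alternatives Msx2 ran from -1.17 to -0.37, Acvr2b from -1.34 to -0.42 and Runx2 from -0.996 to -0.01. Dim spots limit Bmp2, Chrdl1 and Grem1 in knockout-labelled cells. The causes of these changes were not tested.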

Other observations

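The genes beside Grem1 in the RefSeq annotation were read after its values were seen. Fmn1, the formin gene beside it, lay between 7.96 and 8.85 in wild-type and between 8.77 and 9.36 in knockout-labelled samples, a log2 difference of 0.49 (SE 0.25, adjusted p = 0.603 in limma), opposite in sign to Grem1. On the other side Scg5, a secretory granule protein, was dim with a mean of 3.02.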
